A study of Drosophila melanogaster with 4 samples.

Results

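The genes described are the kinesin and dynein motor genes, taken by symbol where it began with Klp, Khc, Dhc, Kif or Dnah or was one of a set list of subunits and regulators (Klc, unc-104, ncd, nod, cos, sw, robl, ctp, Dlc90F, Dlic, DCTN1-p150, DCTN2-p50, Lis-1 and nudE). Of 30 such genes in the table, 25 reached a normalized count of 10 in 2 or more of the 4 libraries, and these 25 are among the 9228 genes of 10626 that passed the same minimum and were tested.

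Kinesins and dyneins are the motor proteins that walk along microtubules. Most kinesins carry cargo toward the growing plus ends, and cytoplasmic dynein, working with the dynactin complex, carries cargo toward the minus ends. In muscle fibres, motors of both kinds are known for placing nuclei and mitochondria, and in Drosophila flight muscle the microtubule array is laid down in pupal life, before the myofibrils are complete. Axonemal dyneins power the beating of cilia and sperm tails, and several kinesins act mainly in the spindle of dividing cells.

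Libraries were made from indirect flight muscle (IFM), whose stretch-activated fibres beat the wings, taken from 1 d adults reared at 27 °C. The groups were w1118, the control strain, with 2 libraries, and bru1M3, with 2 libraries, a mutant made by CRISPR in which a splice-trap cassette sits inside the gene of the RNA-binding protein Bruno1 and truncates the third RNA-recognition motif. Each library came from a pool of flies, bru1M3 is a single allele, and the labels do not say that the 2 replicates of a genotype came from separate cultures, so p-values measure the spread between these pools only. In bulk muscle, fewer cells of a type and less RNA per cell cannot be told apart.

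Values are normalized counts, which are gene counts divided by a size factor per library, and every value was a whole multiple of what 1 read was worth. The counted reads came to between 30384053 and 34105524 per library, but mitochondrial-genome transcripts took 63.7% to 72.6% of them in w1118 and 29.0% to 41.2% in bru1M3, so that nuclear genes had 8326712 reads in w1118 replicate 1 and 21962285 in bru1M3 replicate 2. A low motor gene is therefore measured least precisely in w1118. The flight muscle actin Act88F had between 520361 and 881778 normalized counts in the 4 libraries and its troponin TpnC4 between 85892 and 101603. All 5 IFM markers fixed for the check were detected, and 0 of them were called in either direction. The targeted gene bru1 had 1807 and 1386 normalized counts in w1118 and 10618 and 9976 in bru1M3, so more reads fell in the gene in the mutant, and since this count takes in the exons before the cassette it does not show the truncation. Markers of tubular muscle, the fibre type of the legs and jump muscle, summed to 5551 and 10825 normalized counts in w1118 and 55523 and 27600 in bru1M3. The rise in this sum was that of Act57B, which the paper calls a cardiac actin, with 1023 and 4286 in w1118 and 53650 and 24630 in bru1M3. Of the 4 markers Act57B was called higher, Act79B and TpnC41C were called lower, and TpnC73F was not called. The part of such fibres in the motor gene values was not tested. Of the tendon markers sr was called higher and Tsp lower, with a sum of 255 and 217 in w1118 and 525 and 519 in bru1M3. The hemocyte markers Hml and NimC1 were called lower (list sum 1135 and 903 against 423 and 561) and the fat body marker Lsp2 higher (list sum 145 and 653 against 938 and 602), a call lost with equal totals of nuclear genes, and the part of these cells was not tested either. The 3′-most exon bin was used less in bru1M3 in 71.0% of 4309 genes, and the part of this difference in the gene-level values was not tested.

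Motor genes lay mostly higher in bru1M3 IFM. They were tested with limma on log2(normalized count + 1), with Benjamini-Hochberg adjustment over all 9228 genes. At an adjusted p under 0.05, 8 of the 25 were higher (32.0%, against 12.8% of all genes tested) and 0 were lower (against 9.33%). With edgeR on the recovered reads 8 were higher (13.2% of all genes) and 1 lower (9.71%), and with DESeq2 9 were higher (13.3%) and 1 lower (10.9%). The 8 called genes, all higher, were Dlic, Dlc90F, ctp, DCTN1-p150, Lis-1, Khc, Klc and Klp68D, so that 5 of them encode parts or partners of cytoplasmic dynein and 3 encode parts of the transport kinesins kinesin-1 and kinesin-2. The median log2 fold change of the 25 was 0.55 (quartiles 0.30 and 1.00), beside a median of 0.00 over all genes tested (quartiles -0.53 and 0.55), and 23 of 25 (92.0%) had a fold change above 0, beside 50% of all genes. The genotypes did not overlap in 19 of the 25, or 76.0%, beside 64.5% of all genes tested. Of these, 17 were higher in bru1M3 (beside 32.9% of all genes) and 2 lower (beside 31.6%). Klp3A, which met the minimum in only 1 w1118 library and so was tested through its higher group, is among the 23 and the 17. With 2 libraries against 2, the exact permutation test (two-sided) on one gene has 0.333 as its smallest p, so each call leans on the variance estimate limma pools over the table. The count of 8 fell to 5 after quantile normalization, where 1095 of all 9228 genes were higher, beside 1185 in the main fit. It was also 5 with equal totals of nuclear genes, beside 945 of all genes. With each library left out in turn, the median log2 fold change of the 25 ran from 0.47 to 0.75. Over the 13 alternatives tried, the log2 fold change ran from 1.44 to 1.86 for Dlic and 0.917 to 1.29 for Dlc90F. The range was 0.863 to 1.23 for DCTN1-p150 and 0.653 to 1.11 for Khc.

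**Figure D1:**
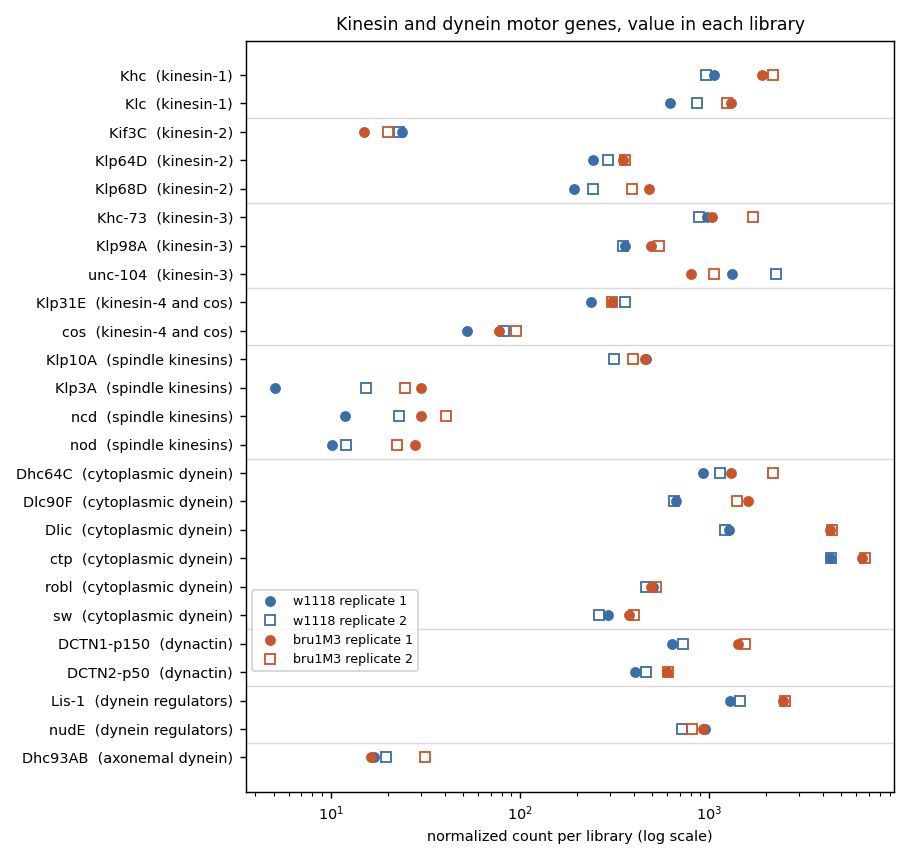
Normalized count (log axis) of the 25 motor genes in each of the 4 libraries, grouped by role, with filled circles for replicate 1 and open squares for replicate 2 of w1118 (blue) and bru1M3 (orange). The bru1M3 symbols lie to the right in 17 genes and to the left in unc-104 and Kif3C.

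Cytoplasmic dynein is built on a heavy chain that holds the motor, with intermediate, light intermediate and light chains that bind cargo adaptors and dynactin. Its light intermediate chain gene Dlic (X, 11154421 to 11164670) showed the largest log2 fold change of the 25 motor genes. Dlic had 1276 and 1211 normalized counts in the w1118 libraries, replicate 1 first here and throughout, and 4362 and 4436 in the bru1M3 libraries. The replicates nearly coincided in each genotype, and the difference was 1.82 on the log2 scale (SE 0.15, limma adjusted p = 3.7e-04), a 3.54-fold difference on the log2(value + 1) scale.

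Dlc90F (3R, 18299229 to 18300044) encodes a light chain of the Tctex type, and its single annotated exon had 667 and 650 normalized counts in w1118 and 1610 and 1410 in bru1M3. The bru1M3 libraries lay well above the w1118 libraries, with a difference of 1.19 on the log2 scale (SE 0.17, limma adjusted p = 0.00317). ctp, the LC8 light chain gene, whose product also binds many proteins outside dynein, had 4370 and 4408 normalized counts in w1118 and 6446 and 6651 in bru1M3. Its rise was smaller, with a difference of 0.58 on the log2 scale (SE 0.16, limma adjusted p = 0.0384), but the alternatives gave 0.0289 to 0.198, with p above 0.05 without each of the 4 libraries in turn (0.198 and 0.176 without w1118 replicates 1 and 2, 0.0748 and 0.070 without bru1M3 replicates 1 and 2). The call was also lost after quantile normalization (0.29 on the log2 scale, adjusted p = 0.174), with equal totals of nuclear genes (adjusted p = 0.0991) and with the replicate block (adjusted p = 0.0736).

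The other chains did not pass the threshold. Dhc64C, the heavy chain gene, had 929 and 1144 normalized counts in w1118 and 1303 and 2162 in bru1M3. The bru1M3 libraries lay above the w1118 libraries but far from each other, and the log2 fold change of 0.70 (SE 0.26) had a limma adjusted p of 0.0963, and of 0.0483 with DESeq2 and 0.0389 with the replicate number as a block, the 2 of 13 alternatives in which it passed. It was 0.34 (adjusted p = 0.329) without bru1M3 replicate 2, 1.07 (adjusted p = 0.0635) without bru1M3 replicate 1 and 0.36 (adjusted p = 0.315) after quantile normalization. sw, the intermediate chain gene, had 291 and 263 normalized counts in w1118 and 377 and 401 in bru1M3, a difference of 0.49 on the log2 scale (SE 0.20, limma adjusted p = 0.123). Sdic2, a gene of the Sdic cluster that arose from part of sw, had 0 normalized counts in both w1118 libraries and 51.2 and 27.7 in bru1M3, and reads of the copies may have been split between them. robl, the roadblock light chain gene, had 505 and 463 normalized counts in w1118 and 494 and 522 in bru1M3, so the genotypes overlapped. Its log2 fold change of 0.07 (SE 0.18, limma adjusted p = 0.818) turned to -0.06 after quantile normalization and with equal totals of nuclear genes.

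The 6 dynein genes thus did not move by the same amount, which can be followed within each library as a ratio of normalized counts per kb of exon. Dlic to robl was 0.35 and 0.36 in w1118 and 1.22 and 1.18 in bru1M3. Dlic to sw was 3.802 and 3.99 in w1118 and 10.02 and 9.60 in bru1M3. Both ratios were close between replicates and did not overlap between genotypes, whatever the scaling of a library, because a library's scale cancels in its own ratio. Dlc90F to Dhc64C was 12.8 and 10.2 in w1118 and 22.1 and 11.7 in bru1M3, and sw to Dhc64C was 1.38 and 1.02 in w1118 and 1.28 and 0.82 in bru1M3, so both overlapped between genotypes, as did ctp to Dhc64C (14.8 and 12.1 against 15.6 and 9.67). Against the same heavy chain, Dlic was higher in bru1M3, at 12.8 and 7.86 beside 5.26 and 4.05 in w1118, and robl was lower, at 10.5 and 6.69 beside 15.1 and 11.2, with no overlap in either. As levels per kb of exon in w1118, ctp stood at 945 normalized counts per kb, robl at 919, Dlc90F at 807 and Dlic at 326, while sw stood at 83.8 and Dhc64C at 71.0. In bru1M3 Dlc90F stood highest at 1851, followed by ctp at 1410, Dlic at 1154, robl at 964, Dhc64C at 119 and sw at 118. Lengths here take in every annotated exon, so the order depends on the annotation. For ctp they include 2578 bases of 3′ untranslated region found in 2 of 5 transcripts. That stretch had a mean of 1491, beside 12267 for the 1160 bases before it.

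**Figure D2:**
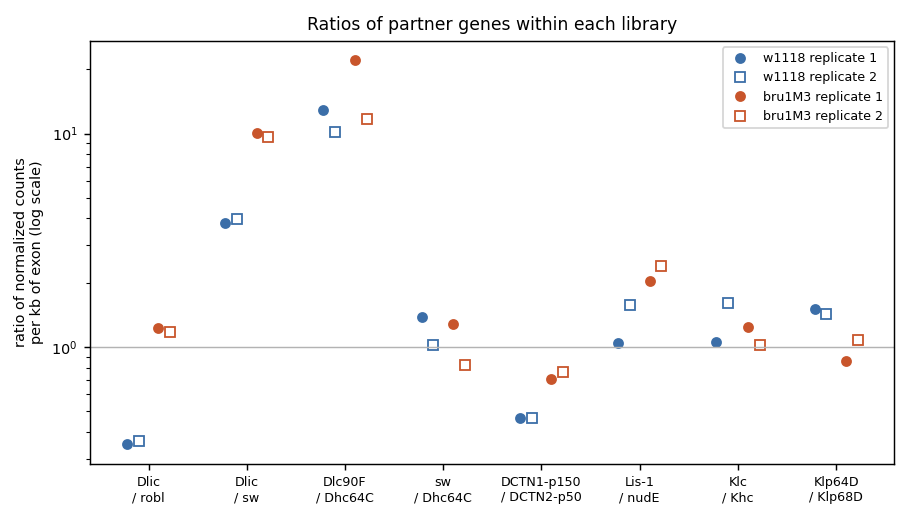
Ratio of normalized counts per kb of exon (log axis) between partner genes within each library, with filled circles for replicate 1 and open squares for replicate 2 of w1118 (blue) and bru1M3 (orange). Dlic to robl sits at 0.35 and 0.36 in w1118 and at 1.22 and 1.18 in bru1M3, and Klp64D to Klp68D sits lower in bru1M3, at 0.86 and 1.08 against 1.50 and 1.43 in w1118.

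Dynactin links dynein to cargo and to the microtubule. DCTN1-p150 (3L, 13929387 to 13934656), the Glued gene whose product binds microtubules and the dynein intermediate chain, had 633 and 726 normalized counts in w1118 and 1429 and 1540 in bru1M3. The groups lay clearly apart, with a difference of 1.13 on the log2 scale (SE 0.17, limma adjusted p = 0.00431). DCTN2-p50, which encodes dynamitin, a subunit of the dynactin shoulder, had 405 and 465 normalized counts in w1118 and 602 and 603 in bru1M3, a difference of 0.47 on the log2 scale (SE 0.18) that did not pass (limma adjusted p = 0.110). The ratio of DCTN1-p150 to DCTN2-p50 per kb was 0.467 in each w1118 library and 0.709 and 0.763 in bru1M3.

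Of 10 further dynein and dynactin genes outside the symbol rule, 9 were in the table and 8 were tested. The 2 called, cpa and cpb, were higher (beside 12.8% of all genes tested) and 0 were lower (beside 9.33%). The median log2 fold change of the 8 was 0.63. cpa and cpb encode the actin capping protein, which caps the dynactin filament but also the ends of thin filaments in the Z-disc. cpa had 555 and 516 normalized counts in w1118 and 2554 and 2179 in bru1M3, a difference of 2.14 on the log2 scale (limma adjusted p = 3.1e-04), and cpb had 240 and 320 in w1118 and 979 and 822 in bru1M3, a difference of 1.69 on the log2 scale (limma adjusted p = 0.00222). Arp1, the actin-related protein that forms the dynactin filament, had 618 and 803 normalized counts in w1118 and 835 and 743 in bru1M3, and the genotypes overlapped. The other 5 pointed-end and shoulder genes tested did not pass either. DCTN3-p24, DCTN4-p62 and DCTN5-p25 had log2 fold changes of 0.62, 0.66 and 0.64 (limma adjusted p = 0.0962, 0.0632 and 0.0722), and Arp10 and DCTN6-p27 had 0.31 and 0.29 (limma adjusted p = 0.451 and 0.489).

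Of the dynein regulators, Lis-1 passed and nudE did not. Lis-1, the fly ortholog of the human lissencephaly gene, whose product binds the dynein motor and favours its active form, had 1292 and 1464 normalized counts in w1118 and 2461 and 2508 in bru1M3. It differed by 0.85 on the log2 scale (SE 0.16, limma adjusted p = 0.0105), with an adjusted p over 0.05 without w1118 replicate 1 (0.0754), without bru1M3 replicate 1 (0.0644), without bru1M3 replicate 2 (0.0545) and after quantile normalization (0.0888). nudE, whose product tethers Lis-1 to dynein, had 953 and 721 normalized counts in w1118 and 929 and 810 in bru1M3, which overlapped. Its log2 fold change of 0.07 (SE 0.20, limma adjusted p = 0.847) changed sign under 4 alternatives, between -0.16 and 0.27. The ratio of Lis-1 to nudE per kb was 1.04 and 1.56 in w1118 and 2.04 and 2.39 in bru1M3.

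Kinesin-1, the main plus-end cargo motor, is made of the heavy chain Khc and the light chain Klc, and both were higher in bru1M3. Khc (2R, 16266960 to 16271971) had 1065 and 963 normalized counts in w1118 and 1892 and 2186 in bru1M3. Its log2 fold change of 1.00 (SE 0.17, limma adjusted p = 0.00667) was larger than the spread between replicates. Klc had 625 and 863 normalized counts in w1118 and 1306 and 1237 in bru1M3, a difference of 0.79 on the log2 scale (SE 0.20, limma adjusted p = 0.0325). The w1118 replicates of Klc lay apart, and its adjusted p went to 0.175 without w1118 replicate 1, 0.181 without bru1M3 replicate 1, 0.123 without bru1M3 replicate 2, 0.117 after quantile normalization and 0.0825 with equal totals of nuclear genes. Klc shares 155 exon bases, 7.51% of its exons, with CG32109 on the opposite strand, and that gene had 95.3 and 94.2 normalized counts in w1118 and 242 and 188 in bru1M3. Per kb of exon, the ratio of Klc to Khc was 1.06 and 1.61 in w1118 and 1.24 and 1.02 in bru1M3, which overlapped.

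Kinesin-2 is a plus-end motor with unlike heavy chains, known for transport in cilia and in axons. Klp68D had 192 and 242 normalized counts in w1118 and 480 and 392 in bru1M3, a difference of 1.00 on the log2 scale (SE 0.23, limma adjusted p = 0.0212). Its adjusted p rose to 0.095 without w1118 replicate 1, 0.163 without bru1M3 replicate 1, 0.0761 without bru1M3 replicate 2 and 0.0618 with equal totals of nuclear genes. Its partner Klp64D had 243 and 293 normalized counts in w1118 and 349 and 358 in bru1M3, a difference of 0.40 on the log2 scale (SE 0.21, limma adjusted p = 0.208). The ratio of Klp64D to Klp68D per kb was 1.50 and 1.43 in w1118 and 0.86 and 1.08 in bru1M3. Kap3, the accessory subunit of the same motor and a gene outside the symbol rule, had 337 and 350 normalized counts in w1118 and 904 and 1164 in bru1M3, a difference of 1.58 on the log2 scale (limma adjusted p = 0.0019). The third kinesin-2 gene, Kif3C, was near the detection minimum with 14 and 21 reads in the control libraries and 22 and 26 in the mutant ones, or 23.8 and 23.01 against 15.01 and 19.99 normalized counts, and did not pass (limma adjusted p = 0.610).

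**Figure D3:**
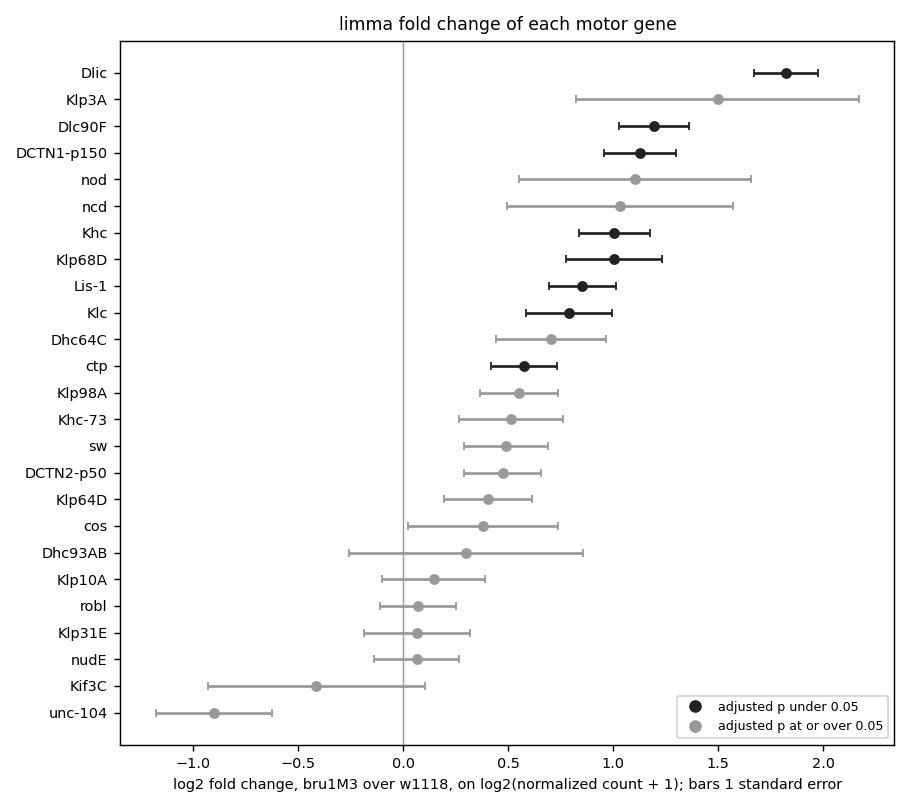
log2 fold change of bru1M3 over w1118 on log2(normalized count + 1) for the 25 motor genes, in order of size, with bars of 1 standard error and black symbols for a limma adjusted p under 0.05. Dlic is highest at 1.82 and unc-104 lowest at -0.90, and the spindle kinesins Klp3A, nod and ncd have the widest bars of the genes above 1.

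The kinesin-3 genes differed in direction, and none passed in limma. unc-104 (2R, 16751503 to 16772671), the carrier of synaptic vesicle precursors in axons, had 1322 and 2246 normalized counts in w1118 and 802 and 1058 in bru1M3. The bru1M3 libraries lay below the w1118 libraries, with a difference of -0.90 on the log2 scale (SE 0.28, limma adjusted p = 0.0561). unc-104 passed in 7 of 13 alternatives, among them edgeR (adjusted p = 0.0485), DESeq2 (adjusted p = 0.00834) and limma without w1118 replicate 1 (adjusted p = 0.0161), and it did not pass without w1118 replicate 2 (0.234), bru1M3 replicate 1 (0.318) or bru1M3 replicate 2 (0.135). It shares 168 exon bases with CG42392 on the same strand, which had at most 38.3 normalized counts.

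The summed level of a list of neuron and axon markers ran alongside unc-104. All 6 genes of that list (elav, nSyb, Syt1, brp, para and fne) were tested. In bru1M3 0 were higher (beside 12.8% of all genes tested) and 2, nSyb and Syt1, were lower (beside 9.33%). The median of the 6 was -1.19 on the log2 scale. With equal totals of nuclear genes 5 of the 6 were lower (beside 1135 of all 9228 genes), with a median of -1.32. Their summed level was 4067 and 6055 normalized counts in w1118 and 1539 and 2389 in bru1M3, with no marker at 0 in any library. unc-104 and this sum had the same order over the 4 libraries, highest in w1118 replicate 2 and lowest in bru1M3 replicate 1. elav (230 and 180 in w1118, 109 and 190 in bru1M3) and fne (252 and 251 in w1118, 59.4 and 153 in bru1M3) did not have this order, and the other markers of the list did. The part of neuronal RNA in the unc-104 result was not tested. The glia markers repo and moody had log2 fold changes of -0.47 and 0.12 and were not called. futsch, a neuronal microtubule-associated protein gene outside the rule, had 764 and 1388 normalized counts in w1118 and 308 and 578 in bru1M3 (log2 fold change -1.29, limma adjusted p = 0.0463).

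**Figure D4:**
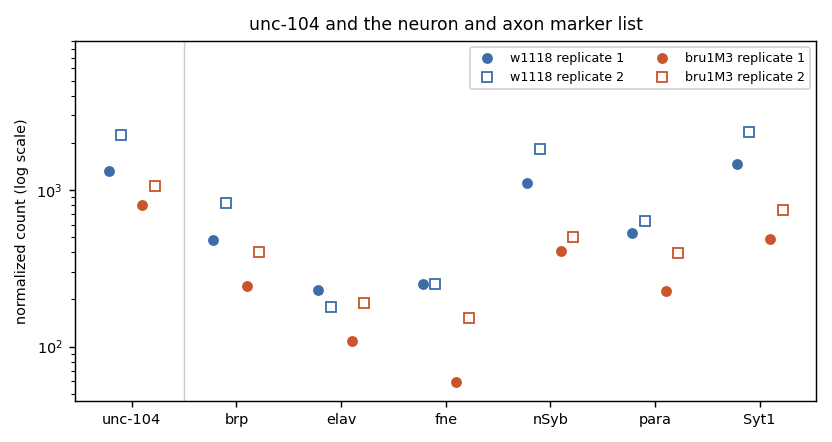
Normalized count (log axis) of unc-104 and of the 6 neuron and axon markers in each library, with filled circles for replicate 1 and open squares for replicate 2 of w1118 (blue) and bru1M3 (orange). The genotypes overlap only for elav, and unc-104 lies at 1322 and 2246 in w1118 and at 802 and 1058 in bru1M3.

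The other kinesin-3 genes were on the higher side without a call. Klp98A, whose product moves endosomes and autophagic vesicles, had 357 and 351 normalized counts in w1118 and 495 and 544 in bru1M3, a difference of 0.55 on the log2 scale (SE 0.19, limma adjusted p = 0.0754). Khc-73, the fly KIF13-type kinesin that moves endosomes and helps to orient spindles, had 977 and 887 normalized counts in w1118 and 1037 and 1703 in bru1M3. bru1M3 replicate 1 lay just above the w1118 libraries and replicate 2 far above them, and the log2 fold change of 0.51 (SE 0.25) had a limma adjusted p of 0.183 and was 0.16 without that library.

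Klp31E, a kinesin-4, and cos, the kinesin-like scaffold of Hedgehog signalling, overlapped between genotypes. Klp31E had 238 and 360 normalized counts in w1118 and 306 and 308 in bru1M3, and cos had 52.8 and 82.2 in w1118 and 77.8 and 95.4 in bru1M3. Their limma adjusted p-values were 0.875 and 0.483.

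Kinesins of the spindle were low in these adult fibres apart from Klp10A, a microtubule depolymerase of the kinesin-13 family. Klp10A had 466 and 316 normalized counts in w1118 and 456 and 395 in bru1M3, which overlapped, with a difference of 0.14 on the log2 scale (limma adjusted p = 0.710). The chromokinesins Klp3A and nod and the minus-end kinesin ncd rested on few reads, from 3 to 21 per w1118 library and from 29 to 53 per bru1M3 library. Klp3A had 5.11 and 15.3 normalized counts in w1118 and 30.03 and 24.6 in bru1M3, nod 10.2 and 12.1 against 28.0 and 22.3, and ncd 11.9 and 23.01 against 30.03 and 40.8. The bru1M3 libraries lay above the w1118 libraries in these genes, with log2 fold changes of 1.497, 1.10 and 1.03, and none passed (limma adjusted p = 0.155, 0.195 and 0.212). Klp3A met the minimum in only one w1118 library, so it entered the test through its higher group. ncd shares 317 exon bases with ca and 100 with CG7789, and nod shares 146 with pkm, all on the opposite strand. ca had 517 and 543 normalized counts in w1118 and 624 and 751 in bru1M3, far above ncd. CG7789 had 83.4 and 107 in w1118 and 103 and 106 in bru1M3. pkm had 283 and 6.57 in w1118 and 0 and 13.8 in bru1M3. The part of these overlaps in the ncd and nod values was not tested. Markers of dividing cells had a summed level of 134 and 177 normalized counts in w1118 and 264 and 220 in bru1M3 over 7 genes, 4 of which were tested and 0 called, and the part of such cells in these values was not tested.

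Of the axonemal dyneins only Dhc93AB met the minimum, with 17.0 and 19.7 normalized counts in w1118 and 16.4 and 31.5 in bru1M3, and the genotypes overlapped (limma adjusted p = 0.738). Per kb of exon it had the lowest level of the 25 genes, 1.51 normalized counts over the 4 libraries, against 1329 for Dlc90F, the highest. The 5 genes under the minimum were the axonemal dyneins Dhc36C, Dhc62B and Dnah3 and the spindle kinesins Klp59C and Klp61F. Each had at most 12 reads in any library, and Klp61F had 0 reads in both w1118 libraries, against 12 and 5 in bru1M3.

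Exon use within the motor genes differed little between genotypes in the authors' values. The exon table gives a usage score per genotype for each exon bin, on the scale of DEXSeq, which reads as use of that bin against the remaining bins. These scores are the authors' estimates per genotype with no replicate values used here, so no test was made, and a ratio of scores is not a fold of reads. Among bins with a mean of at least 50, the 101 scored bins of 15 motor genes had a median absolute log2 ratio of scores of 0.0395, beside 0.0685 over 30283 bins of all genes, and 1 of 101 (0.99%) reached 0.5, beside 1.93% of all bins. In Dlic, the gene with the largest rise, the log2 ratios of its 9 bins ran from -0.05 to 0.04, so no bin of it departed from the rest. Dhc64C, unc-104 and nudE were not analysed here at the exon level, and the single bins of Dlc90F and Klp64D carry no score.

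The bin past 0.5 was sw bin 2 (X, 20228124 to 20229072), which holds the last coding sequence and the 3′ untranslated region. Its usage score was 9.28 in w1118 and 6.17 in bru1M3, while sw bin 13, near the 5′ end, went from 11.4 to 12.7. sw bin 2 had a mean of 85.6 over 949 bases, beside 406 over 238 bases in bin 13. Reads of sw may have been split with Sdic copies, and the part of this in the score of bin 2 was not tested. The next was Khc-73 bin 1 (2R, 15515778 to 15517706), a 3′ untranslated region carried by 1 of 5 annotated transcripts, with scores of 11.4 and 8.28. Khc-73 bin 20, a coding bin near the 5′ end, went the other way, from 6.13 to 7.78. In these genes the named 3′ bins had lower scores and the named 5′ bins higher scores in bru1M3.

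Smaller differences were found in Klp31E bin 15 (2L, 10418405 to 10418991), at the 3′ end of the gene, with scores of 6.71 in w1118 and 5.49 in bru1M3, and in Klp98A bin 8 (3R, 27551909 to 27552344), an internal coding bin, with 6.88 and 8.28. Klp10A bin 2 (X, 11130238 to 11130495), in the 3′ untranslated region, had scores of 8.33 and 7.03, and ctp bin 3 (X, 4688318 to 4688672), a 5′ untranslated region of 1 of 5 transcripts, had 5.52 and 6.26. Of 14 motor genes with at least 3 scored bins, 11 had a lower score in bru1M3 in the 3′-most bin (78.6%, beside 71.0% of 4309 genes) and 9 a higher one in the 5′-most bin (64.3%, beside 60.8%). The shift along the motor genes was thus near that of genes in general, and its source was not tested.

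**Figure D5:**
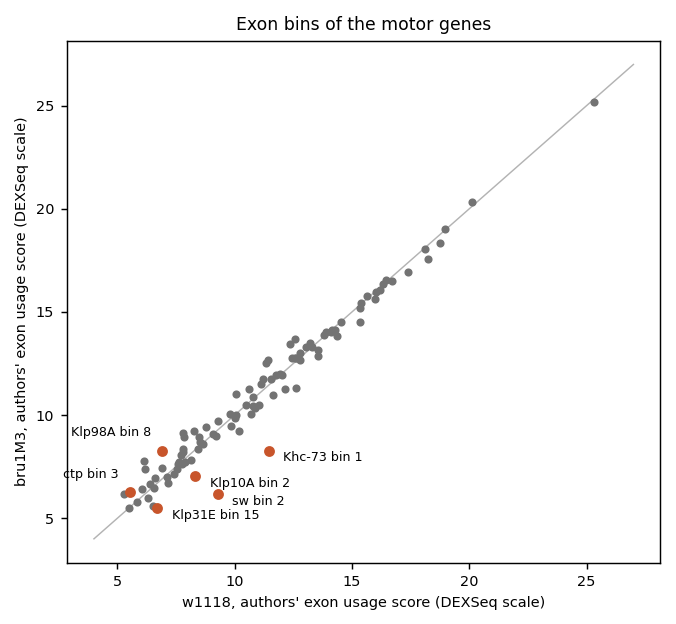
The authors' exon usage score in bru1M3 against that in w1118, on the DEXSeq scale, for the 101 bins of 15 motor genes with a mean of at least 50, with the line of equal scores and orange symbols for the 6 bins named. Most bins sit close to the line, and sw bin 2 (9.28 and 6.17) and Khc-73 bin 1 (11.4 and 8.28) lie farthest below it.

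Genes that join motors to cargo were given from a list of 15 symbols, of which 12 were in the table and 11 were tested. In bru1M3 4 of the 11 were higher (beside 12.8% of all genes tested), 1 was lower (beside 9.33%) and 6 were not called. Their median log2 fold change was 0.34. With equal totals of nuclear genes 2 were higher (beside 945 of all 9228 genes) and 1 was lower (beside 1135), with a median of 0.21. CLIP-190, a plus-end protein that links membranes to microtubules, had 979 and 1057 normalized counts in w1118 and 3699 and 3830 in bru1M3, a difference of 1.89 on the log2 scale (limma adjusted p = 3.5e-04). milt, the Milton adaptor that ties kinesin-1 to mitochondria, had 2003 and 2123 in w1118 and 3623 and 5011 in bru1M3, a difference of 1.05 on the log2 scale (limma adjusted p = 0.0105). Its mitochondrial partner Miro went the other way, with 768 and 856 in w1118 and 545 and 479 in bru1M3, a difference of -0.66 on the log2 scale (limma adjusted p = 0.0391). BicD and egl, which together join RNA cargo to dynein, had log2 fold changes of 0.74 and 0.79 (limma adjusted p = 0.0202 and 0.0368).

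Proteins that bind or cut microtubules came from another list of 15, of which 14 were tested. In bru1M3 8 of the 14 were higher (beside 12.8% of all genes tested), 1 was lower (beside 9.33%) and 5 were not called. Their median log2 fold change was 0.66. With equal totals of nuclear genes 6 were higher and 1 was lower, with a median of 0.53. Map205, a microtubule-associated protein that also binds Polo kinase, had 522 and 531 normalized counts in w1118 and 9250 and 10984 in bru1M3, a difference of 4.26 on the log2 scale (limma adjusted p = 6.9e-05). Eb1, which tracks growing plus ends, had 551 and 665 in w1118 and 2384 and 1577 in bru1M3 (log2 fold change 1.68, limma adjusted p = 0.00306), and Patronin, which guards minus ends, had 665 and 700 in w1118 and 1546 and 1553 in bru1M3 (log2 fold change 1.18, limma adjusted p = 0.00277). ens, the kinesin-1 cofactor ensconsin, had a difference of 0.69 on the log2 scale (limma adjusted p = 0.0295), and tau one of 1.16 (limma adjusted p = 0.0055). Jupiter, Kat60 and msps were also called higher, with log2 fold changes of 0.90, 0.89 and 0.63 (limma adjusted p = 0.019, 0.033 and 0.035). The lower gene was futsch. Of 6 kinesin family genes outside the symbol rule, 4 were tested, and Kap3 was higher and cana, a relative of the centromere kinesin CENP-E of mammals, was lower (log2 fold change -0.78, limma adjusted p = 0.0337).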

How the data were processed

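Stranded poly-A mRNA libraries were sequenced from IFM of 1 d adults of both genotypes, within the first day after eclosion. The authors mapped reads with STAR 2.7.3a to BDGP6.22, counted them with featureCounts (Subread 2.0.0) and deposited DESeq2 1.32.0 normalized counts, a signal of counts divided by 1 size factor per library. Tool versions are those of the submitters' processing notes. Whether strand was used in counting is not given in the sources used here. The authors also deposited a mean signal per exon bin and a DEXSeq usage score per genotype, and columns of their own gene and exon comparisons (fold changes, p-values), which were not used. A further 4 exon columns matched no sample label and were not used.

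Genes with at least 10 in at least 2 libraries (9228 of 10626, after 2 rows under a repeated identifier were dropped) were tested with limma 3.58.1 (lmFit, eBayes with trend) in R 4.3.3 on log2(value + 1), with no block and Benjamini-Hochberg adjustment. Fold changes on this scale are understated for low genes. Whole reads were regained from the value of 1 read in each library, and 100% of values came out whole to within 0.01 reads. They were tested with edgeR 4.0.16 (quasi-likelihood) and DESeq2 1.42.0 as alternatives. Other alternatives were pseudocounts of 0.1 and 10, no filter, a minimum of 50, quantile normalization, equal totals of nuclear genes, a replicate block and leaving out each library.

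Exon lengths, gene positions and overlaps came from the Ensembl release 115 annotation of BDGP6.54, in which all 30 motor genes were found, and all 128 exon bins of motor genes lay inside its exons. Bin positions are those of the deposited table. The members and gene lists were chosen with earlier results of these data known. Members passing the test, all cytoplasmic dynein, dynactin and kinesin-1 genes, and the highest and lowest per role were to be given in full. Called genes of the lists were to be named. Exon bins named are, for at most 6 genes, those with the largest ratio of scores at a mean of at least 50. Dlic's bins, sw bin 13, Khc-73 bin 20, the values of Khc-73 and nod, Sdic2, overlapping genes and uncalled list genes were added after their values were seen. Counts were also simulated for the 9228 genes with 200 changed. There limma called 55 of 91 genes altered by 2 on the log2 scale and 14 of 109 altered by 1. Its 74 calls held 5 unchanged genes. In the data 2046 of 9228 genes (22.2%) were called, far more than were changed in the simulation. The adjustment was therefore stricter in the simulation, and its rates do not carry over to the data.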

Additional observations from a re-analysis of the deposited data

How the results depend on the processing

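The number of motor genes called higher, 8, was 5 after quantile normalization and 5 with equal totals of nuclear genes, and from 4 to 7 with each library left out. The latter scaling moved the median of all genes by -0.13 and that of the motor genes to 0.42. Among fits on all 4 libraries, the number called lower, 0, became 1, unc-104, with a minimum of 50, quantile normalization and equal totals of nuclear genes. The same held with edgeR, DESeq2 and the replicate block. In these settings from 896 to 1196 of all genes tested were lower, beside 861 in the main fit. With each library left out, fewer motor genes were called higher, but 1 group then held 1 library, so no counts are given. The median log2 fold change of the motor genes ran from 0.47 to 0.75 in these fits.

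Signs changed only in genes not called. With equal totals of nuclear genes, Klp31E went to -0.063, nudE to -0.065 and robl to -0.060, and after quantile normalization nudE went to -0.16 and robl to -0.057. With each library left out, Klp31E ran from -0.23 to 0.36, Klp10A from -0.14 to 0.43, nudE from -0.14 (and -0.03) to 0.27 and Dhc93AB from -0.15 to 0.75. Causes were not tested. With equal totals of nuclear genes, adaptor genes called higher fell from 4 to 2 and microtubule-associated genes from 8 to 6. Over all 9228 genes the count fell from 1185 to 945.

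The replicate number as a block called 8 motor genes higher and 1 lower, with ctp lost and Dhc64C gained. Of all 9228 genes it called 1265 higher and 1029 lower. The labels give replicates of the 2 genotypes only a number in common. Replicate deviations correlated at 0.03 between genotypes over 9228 genes. With 1 replicate difference per genotype, that value cannot show whether equal numbers shared a batch. Genes with under about 50 normalized counts are limited by reads in w1118.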
